A study of Mus musculus with 18 samples.

Results

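The genes described are the subunits of the respiratory chain and of ATP synthase in activated mouse CD8 T cells. They were chosen by symbol, as protein-coding genes named Ndufa, b, c, s or v, Sdha to Sdhd, Uqcr, Cox4 to Cox8, Atp5 or mt-Nd, mt-Co, mt-Atp and mt-Cytb. Genes with -ps names were left out, and a gene had to reach a normalized value of 1 in at least 3 of the 18 libraries. Of 102 symbols that matched, 96 passed, out of 23414 genes in the table and 10257 genes tested. They were 78 nuclear subunits, 13 mitochondrially encoded subunits and 5 Ndufaf genes, which match the pattern but encode assembly factors of complex I and are kept apart. Since the threshold reads the same values that are described here, a gene that passed only through the group where it is high had to differ. Of the 96, 93 were at 1 or more in all 18 libraries. The other 3 included Ndufs1 in 4 libraries and Cox6b2 in 7. The 6 matches under the threshold were Cox6a2, Cox7a1, Ndufs4, Ndufaf2, Ndufaf5 and Ndufaf6. Just inside it, the third-highest value was 1.04 for Ndufs1. Just outside, it was 0.727 for Ndufs4 and 0.545 for Ndufaf6.

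Polyadenylated RNA was sequenced in bulk from CD8 T cells sorted out of splenocyte cultures of P14 mice, whose transgenic T cell receptor recognises the gp33 peptide of a mouse virus. Donor mice were either wild type (WT) or had a CD8-specific knockout (KO) of TrIP, a cell-surface protein that restrains PI3K signalling and is encoded by Pik3ip1. Every culture ran for 24 h in medium with IL-2 (50 U/ml) plus IL-12 (2 ng/ml). With 3 libraries each, the 6 groups were WT and KO without peptide, WT and KO with gp33 at 100 ng/ml, and WT and KO with gp33 at 100 ng/ml plus 10 µM IC87114, which inhibits PI3K delta. The sources used here do not name the promoter that drives the CD8-specific deletion, nor the age of the mice. The labels do not say that replicates came from separate animals, so the p-values measure only the spread between these libraries, which may be technical.

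The respiratory chain passes electrons from NADH (complex I) and succinate (complex II) through complex III to oxygen at complex IV, and all but complex II pump protons. ATP synthase (complex V) uses the proton gradient to make ATP. Most subunits are encoded in the nucleus, made in the cytosol and imported, while a small core is encoded on mitochondrial DNA, which is transcribed inside the organelle as long precursors. All subunits of complex II are nuclear. Resting T cells rely on oxidative phosphorylation, and activated T cells raise glycolysis and build up their mitochondria as they prepare to divide.

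Promoters of the nuclear subunits are shown because the mitochondrial genes share a single control region while each nuclear gene has its own. The windows cover 250 bases before to 50 after the annotated start and come from RefSeq on GRCm38.p6. There were 71 windows for 66 of the 78 nuclear subunits and 32851 windows in all. The site known for nuclear respiratory factor 1 (NRF1), spelled GCGCA, any base and then GCGC, was found on either strand in 18 windows (25.4%), against 4.60% of all windows. The ETS letters CCGGAAG were in 17 (23.9%), against 8.86%. The YY1 letters AAGATGGCG were in 6 (8.45%), against 1.40%, and the E-box CACGTG, bound by Myc, in 7 (9.86%), against 7.15%. A match describes the letters and is not evidence of binding. In the 5 sequences below, written 5′ to 3′ along the gene's own strand, capitals mark these letters in either orientation.
Sdhd (chr9:50603800-50604099, minus strand): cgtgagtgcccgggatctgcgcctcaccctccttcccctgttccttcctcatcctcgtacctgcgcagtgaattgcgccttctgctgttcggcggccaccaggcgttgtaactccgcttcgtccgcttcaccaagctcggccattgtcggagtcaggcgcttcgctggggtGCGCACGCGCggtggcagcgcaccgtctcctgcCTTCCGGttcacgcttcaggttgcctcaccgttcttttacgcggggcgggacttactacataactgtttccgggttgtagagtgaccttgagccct
Cox6a1 (chr5:115348909-115349208, minus strand): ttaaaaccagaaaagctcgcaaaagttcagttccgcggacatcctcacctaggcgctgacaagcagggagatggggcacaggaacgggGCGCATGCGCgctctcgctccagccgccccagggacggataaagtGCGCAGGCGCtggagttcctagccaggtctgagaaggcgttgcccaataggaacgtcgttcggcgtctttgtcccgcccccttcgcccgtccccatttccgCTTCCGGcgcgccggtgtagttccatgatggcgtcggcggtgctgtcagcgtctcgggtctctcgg
Atp5g3 (chr2:73911277-73911576, minus strand): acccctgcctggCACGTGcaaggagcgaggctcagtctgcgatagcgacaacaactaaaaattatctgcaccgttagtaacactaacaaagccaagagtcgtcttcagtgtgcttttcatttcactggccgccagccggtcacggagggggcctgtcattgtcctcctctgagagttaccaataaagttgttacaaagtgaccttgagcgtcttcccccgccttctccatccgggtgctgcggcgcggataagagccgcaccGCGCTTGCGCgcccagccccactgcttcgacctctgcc
Cox7a2l (chr17:83514284-83514583, minus strand): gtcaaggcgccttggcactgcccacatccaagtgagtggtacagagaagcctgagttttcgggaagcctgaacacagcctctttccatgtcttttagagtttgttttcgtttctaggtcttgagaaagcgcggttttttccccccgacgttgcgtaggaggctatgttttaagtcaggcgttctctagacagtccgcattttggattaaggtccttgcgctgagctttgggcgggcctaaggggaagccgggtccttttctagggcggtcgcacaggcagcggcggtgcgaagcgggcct
Cox6b2 (chr7:4753045-4753344, minus strand): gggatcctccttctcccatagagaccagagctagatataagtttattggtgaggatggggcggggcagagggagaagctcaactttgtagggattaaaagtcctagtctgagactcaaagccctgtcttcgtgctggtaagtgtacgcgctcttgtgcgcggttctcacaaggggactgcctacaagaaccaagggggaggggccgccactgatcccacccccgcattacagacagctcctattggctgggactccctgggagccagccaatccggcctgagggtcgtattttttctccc
Sdhd, a membrane anchor of complex II, holds 1 NRF1 and 1 ETS match. Cox6a1, a nuclear subunit of complex IV, holds 2 NRF1 and 1 ETS match. Atp5g3, a gene for subunit c of the ATP synthase ring, holds 1 NRF1 match and 1 E-box. The windows of Cox7a2l and Cox6b2, described further on for their values with gp33, hold none of the letters searched. The median log2 fold change with gp33 was 0.81 in WT and 0.38 in the libraries labelled KO over the 17 nuclear subunits whose window holds the NRF1 letters, and 0.73 and 0.48 over the 49 whose window does not.

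The values are the authors' normalized values, read here as log2(value + 1), since the log base and offset are not stated. They are given back-transformed unless called log2. They are relative values whose scaling is not stated, and their sum per library ranged from 521782 to 630652. Whether they are scaled for gene length is not stated either, so levels of different genes are not compared. The exception is a gene and its own near-identical copies, further on. In bulk RNA, fewer cells of a type and less RNA per cell cannot be told apart. Depth is unknown. Replicate 2 of WT with gp33 and inhibitor stood apart: its mean correlation with its own group was 0.961, the lowest, where the highest library reached 0.996. Its mean log2 value over the nuclear subunits was 4.95, against 4.13 and 4.25 in the other 2 libraries of the group. Because all groups share 1 estimate of the spread, this library enters the errors of every comparison, and the counts are also given without it. Pik3ip1, the gene targeted, went against the labels. It was at 31.0 ± 2.43 (SD, n = 3) in WT and 76.1 ± 2.36 in KO without peptide, at 0.764 ± 0.10 and 1.61 ± 0.07 with gp33, and at 0.632 ± 0.02 and 2.42 ± 0.21 with inhibitor. A value per gene does not show which part of the transcript was read, so these values cannot check the labels. The libraries are therefore called "labelled KO" wherever genotypes are compared.

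Markers of other cells differed between the groups. The 7 CD8 T cell markers were all measured, and their summed value was 1347 to 1486 without peptide and 472 to 777 with it. The 10 B cell markers summed to 569 to 756 in WT and 416 to 639 in the libraries labelled KO without peptide, and to 59.8 to 109 with it. Without peptide, the test described below called 8 of the 9 tested lower in the libraries labelled KO, where 7.23% of all genes were lower. The 10 myeloid markers summed to 64.3 to 89.1 in WT and 145 to 225 in the libraries labelled KO without peptide, to 38.0 to 49.2 and 110 to 147 with gp33, and to 48.6 to 66.4 and 61.0 to 99.7 with inhibitor. The 4 NK markers in the table, of 5 listed, summed to no more than 1.604 and the 3 CD4 T cell markers to no more than 1.63 in any library. The 4 red cell markers in the table summed to 3.52 to 10.3 in the unstimulated libraries labelled KO and to 0.224 to 0.626 in the unstimulated WT libraries. With inhibitor they summed to 0.777 to 7.90 in the libraries labelled KO and 0.190 to 0.635 in WT, and with gp33 alone to 0.137 to 0.894 and 0 to 0.445. The part of these cells in the differences described below was not tested.

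Nuclear and mitochondrially encoded subunits moved in opposite directions with gp33 in both genotypes. The mean log2 value of the 78 nuclear subunits was 3.44, 3.61 and 3.52 in the 3 unstimulated WT libraries and 4.10, 4.21 and 4.41 with gp33. In the libraries labelled KO it was 3.95, 3.68 and 3.55 without peptide and 4.17, 4.13 and 4.14 with gp33. All gp33 libraries lay above all unstimulated libraries of their genotype, with group means of 3.52 and 4.24 in WT and 3.73 and 4.15 in the libraries labelled KO. The mean log2 value of the 13 mitochondrially encoded subunits was 10.33, 10.34 and 10.50 in unstimulated WT and 9.31, 9.38 and 9.51 with gp33. It was 10.43, 10.32 and 10.41 in unstimulated libraries labelled KO and 9.44, 9.54 and 9.53 with gp33. No gp33 library reached the lowest unstimulated one, and the unstimulated groups of both genotypes had the same mean of 10.39. As a share of the summed values of protein-coding genes, the mitochondrially encoded subunits took 20.3% ± 0.97 (SD, n = 3) in unstimulated WT and 10.7% ± 0.30 with gp33, and 18.5% ± 1.01 and 12.01% ± 0.61 in the libraries labelled KO. The nuclear subunits took 1.21% ± 0.05 and 1.99% ± 0.14 of the nuclear protein-coding values in WT, and 1.31% ± 0.13 and 1.96% ± 0.03 in the libraries labelled KO. Protein-coding genes held 30.8% to 32.2% of a library's summed values without peptide and 26.1% to 28.5% with gp33 alone. The sums of the subunits leave out their pseudogene copies, described further on. For many nuclear subunits the copies held more than the gene, and for several mitochondrially encoded ones about as much. These summaries are descriptions with no test, since the genes were chosen with results known.

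**Figure D1:**
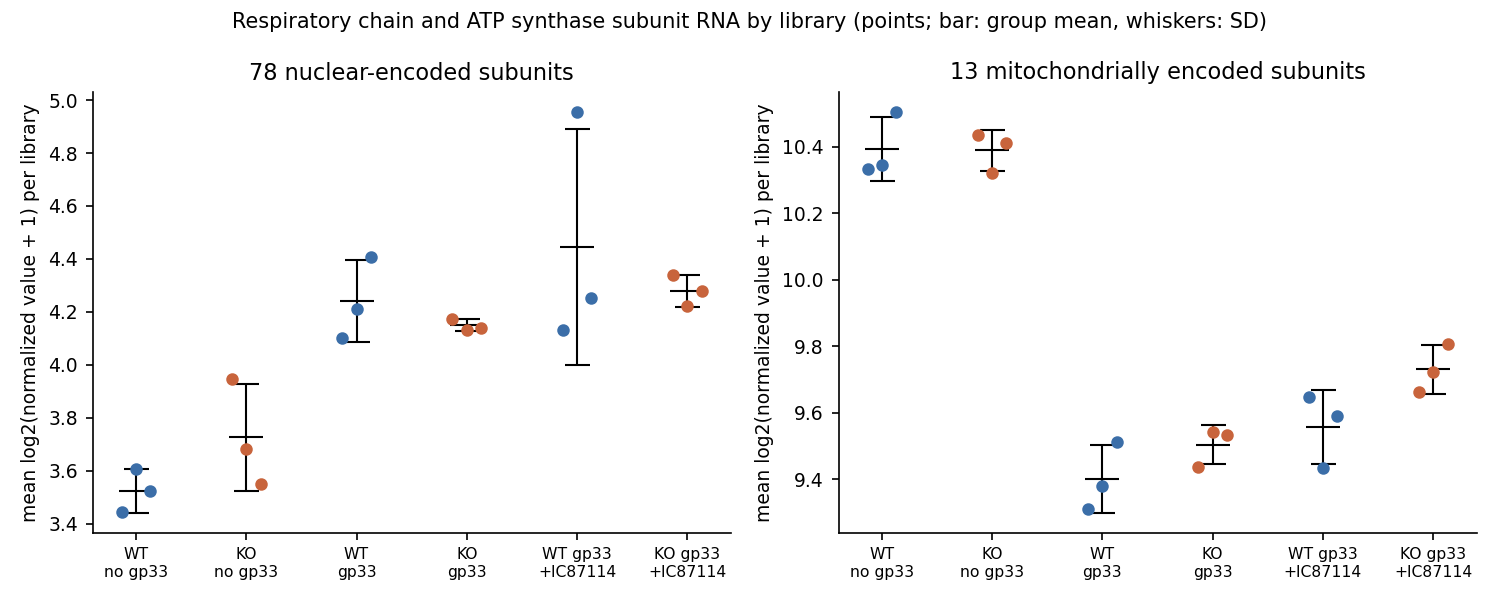
Mean log2(value + 1) per library over the 78 nuclear subunits and over the 13 mitochondrially encoded subunits, by group, with each point 1 library, a bar at the group mean and whiskers of 1 SD. The nuclear mean lies between 3.44 and 3.95 without peptide and between 4.10 and 4.95 with it, and the mitochondrial mean between 10.32 and 10.50 without and between 9.31 and 9.81 with it.

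With gp33 against no peptide in WT, 54 of the 78 nuclear subunits rose and 1 fell in limma's test, with a threshold of 0.05 on p adjusted by Benjamini-Hochberg across every gene tested. Of all genes tested, 73.7% were called, 42.1% higher and 31.6% lower. Of these 10257 genes 5800 are protein-coding, as all the subunits are, and the rest include pseudogenes. The shares of all genes given here and below are thus over a more mixed set than the subunits. The median log2 fold change of the nuclear subunits was 0.68, with 73 of 78 above 0, and that of all genes tested 0.19. Without replicate 2 of WT plus inhibitor, 67 rose and 4 fell, where 79.8% of all genes were called, 46.3% higher and 33.5% lower. Of the 78, 36 rose and 5 fell in the libraries labelled KO, with a median of 0.38 and 61 of 78 above 0, where 68.5% of all genes were called, 41.1% higher and 27.3% lower, with a median of 0.20. The share that rose there was thus near that of all genes, and the share that fell was smaller. Without that replicate, 48 rose and 8 fell, where 75% of all genes were called, 45.6% higher and 29.4% lower. The mitochondrially encoded subunits gave 0 higher and 11 lower of 13 in WT, with a median of -1.06, and 0 higher and 12 lower of 13 in the libraries labelled KO, with a median of -0.93. Without that replicate the counts were 0 and 12 in WT and 1 and 12 in the libraries labelled KO. Changes, differences and medians given from here on are on the log2 scale, and the counts by complex and by list with gp33 stand beside these shares of all genes. Each genotype used its own unstimulated libraries, and 35 nuclear subunits rose in both, 0 rose in WT and fell in the other genotype, and 11 mitochondrially encoded subunits fell in both. Across the 78 nuclear subunits the log2 fold changes of the 2 genotypes had Pearson's r of 0.76 and Spearman's rho of 0.87, and r was 0.89 over 77 without Cox6b2. These are descriptions across genes of the same libraries.

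**Figure D2:**
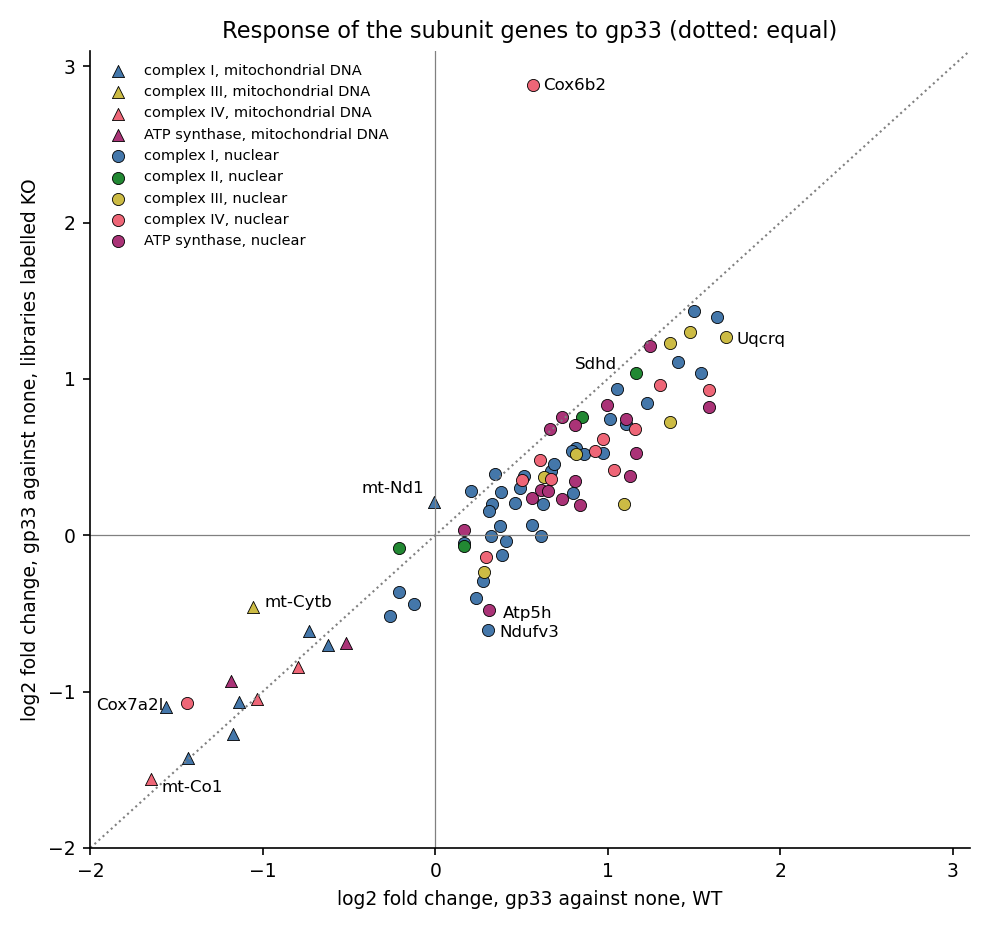
Log2 fold change with gp33 in WT (horizontal) against the libraries labelled KO (vertical), with each point 1 of the 78 nuclear (circles) or 13 mitochondrially encoded (triangles) subunits. The 13 mitochondrially encoded genes lie at or below 0.21 on both axes, 61 of 78 nuclear subunits lie above 0 on both, and Cox6b2 lies far above the diagonal.

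Complex I, which oxidises NADH, had 20 of 37 nuclear subunits higher and 0 lower in WT, with a median of 0.52, and 13 that rose and 3 that fell in the libraries labelled KO, with a median of 0.28. Ndufab1, the mitochondrial acyl carrier protein that is also a complex I subunit, was at 2.26, 2.60 and 2.10 in unstimulated WT and 8.19, 9.54 and 10.3 with gp33. It was at 3.66, 2.62 and 2.28 without and 8.49, 9.25 and 9.42 with gp33 in the libraries labelled KO. The gp33 libraries did not overlap the unstimulated ones in either genotype, and Ndufab1 had the largest rise among complex I subunits in WT libraries (log2 fold change 1.64, SE 0.13, adjusted p = 3.59e-08). Ndufa12, an accessory subunit, rose by 1.54 (adjusted p = 6.59e-08) on the log2 scale in WT. Ndufb6, an accessory subunit of the membrane arm, had the largest rise of complex I in the libraries labelled KO, from 8.39, 6.45 and 6.53 to 19.3, 21.1 and 22.4 (log2 fold change 1.44, SE 0.21, adjusted p = 2.06e-05). It rose by 1.4995 (adjusted p = 1.14e-05) in WT. Split by place in the complex, 6 of 15 matrix arm subunits rose in WT and 0 fell, with a median of 0.41, and 12 of 20 membrane arm subunits rose and 0 fell, with a median of 0.59. In the libraries labelled KO the matrix arm had 5 higher and 1 lower, with a median of 0.27, and the membrane arm 6 higher and 2 lower, with a median of 0.29. The share that rose in the matrix arm was 40.0% in WT, near the 42.1% of all genes. In the libraries labelled KO it was 33.3% in the matrix arm and 35.1% in nuclear complex I as a whole, and the 6 of 20 in the membrane arm were likewise a smaller share than the 41.1% of all genes. The split leaves out Ndufab1 and Ndufa4, the second of which is now placed in complex IV.

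Complex II, which oxidises succinate and also serves the citric acid cycle, split by subunit. Sdhd, a membrane anchor, was at 51.1, 57.0 and 53.2 in unstimulated WT and 121, 121 and 123 with gp33 (log2 fold change 1.16, SE 0.07, adjusted p = 1.43e-09). Libraries labelled KO went from 57.9, 56.5 and 52.7 to 113, 112 and 121 (log2 fold change 1.04, SE 0.07, adjusted p = 6.64e-09). The groups lay far apart in both. Sdhb, the iron-sulfur subunit, rose by 0.85 (adjusted p = 0.0102) in WT and 0.76 (adjusted p = 0.0208) in the libraries labelled KO. Sdha, the flavoprotein that oxidises succinate, was at 3.12, 4.14 and 3.22 without and 3.08, 2.73 and 2.79 with gp33 in WT, and the test did not call its difference of -0.21 (adjusted p = 0.104). Sdhc, the other anchor, was not called in either, at 0.17 (adjusted p = 0.146) and -0.07 (adjusted p = 0.552). So 2 of 4 subunits rose in both genotypes and 0 fell.

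Complex III, which passes electrons to cytochrome c, had 7 of 8 nuclear subunits higher and 0 lower in WT, with a median of 1.23. Among libraries labelled KO 4 rose and 0 fell, with a median of 0.62. Uqcrq, a small accessory subunit, was at 53.3, 66.6 and 57.4 in unstimulated WT and at 177, 182 and 219 with gp33. Its groups were well separated, and its rise was the largest of all nuclear subunits in WT libraries (log2 fold change 1.69, SE 0.13, adjusted p = 1.56e-08). It went from 82.0, 72.5 and 61.7 to 183, 171 and 168 in the libraries labelled KO (1.27, adjusted p = 4.51e-07). Uqcr10, another small subunit, rose by 1.30 (adjusted p = 2.95e-06) there and by 1.48 (adjusted p = 6.22e-07) in WT. Uqcrfs1, the Rieske iron-sulfur protein, went from 52.1, 52.3 and 57.2 to 145, 138 and 138 in WT (1.36, adjusted p = 2.08e-08). Uqcrh, the acidic hinge protein, was not called in either, at 0.29 (adjusted p = 0.328) and -0.24 (adjusted p = 0.429).

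Complex IV, which reduces oxygen, had 10 of 12 nuclear subunits higher and 1 lower in WT, with a median of 0.80, and 8 that rose and 1 that fell in the libraries labelled KO, with a median of 0.51. Cox5a, a nuclear subunit on the matrix side, was at 3.99, 5.17 and 4.64 in unstimulated WT and 13.2, 16.3 and 18.2 with gp33 (log2 fold change 1.59, SE 0.28, adjusted p = 0.000125). It rose by 0.93 (adjusted p = 0.0086) in the libraries labelled KO. The subunit that fell in both was Cox7a2l, also called SCAF1, which links complexes III and IV into supercomplexes. Its values were 27.3, 21.6 and 25.5 without peptide and 8.99, 8.14 and 8.34 with gp33 in WT, and 20.9, 19.9 and 20.8 without and 8.82, 9.69 and 9.15 with gp33 in the libraries labelled KO. The gp33 libraries were all less than 10, and no unstimulated library was under 19.9. Limma gave log2 fold change -1.44, SE 0.10, adjusted p = 5.40e-09 in WT and log2 fold change -1.08, SE 0.10, adjusted p = 1.65e-07 in the libraries labelled KO. Cox7a2, its paralogue that sits in complex IV itself, had log2 fold changes of 1.30 (adjusted p = 0.000102) and 0.96 (adjusted p = 0.00156). Cox8a, the ubiquitous isoform of its subunit, rose by 0.61 (adjusted p = 1.03e-05) and 0.48 (adjusted p = 0.000115).

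ATP synthase had 15 of 17 nuclear subunits higher and 0 lower in WT, with a median of 0.81, and 9 that rose and 1 that fell in the libraries labelled KO, with a median of 0.38. All 5 subunits of the catalytic head and central stalk rose in WT, with a median of 0.81, and 3 of the 5 rose in the libraries labelled KO, with a median of 0.71. Atp5b, the catalytic beta subunit, was at 74.0, 67.0 and 58.9 without and 163, 149 and 154 with gp33 there, the largest rise of the complex (log2 fold change 1.21, SE 0.16, adjusted p = 6.74e-06), and it rose by 1.25 (adjusted p = 4.30e-06) in WT. All 3 genes of subunit c, the rotating ring, rose in both genotypes. Atp5g1 rose by 1.59 (adjusted p = 6.38e-06) in WT, the largest of the complex, and Atp5g2 and Atp5g3, which encode the same mature protein, by 0.61 and 1.11. Their rises in the libraries labelled KO were 0.82, 0.29 and 0.74. Of the 4 peripheral stalk subunits 3 rose in WT, with a median of 0.66. Of the same 4, 2 rose and 1 fell in the libraries labelled KO, with a median of 0.41. The one that fell was Atp5h, subunit d, from 29.1, 20.2 and 19.5 to 16.6, 15.3 and 15.97 (log2 fold change -0.48, SE 0.19, adjusted p = 0.0381), while WT was at 16.7, 20.2 and 18.2 without and 19.6, 23.3 and 26.6 with gp33 (0.31, adjusted p = 0.152). The call was lost without replicate 1 of the unstimulated libraries labelled KO, which left -0.30 (adjusted p = 0.183). It was also lost without any 1 of the 3 gp33 libraries labelled KO, with adjusted p of 0.0622, 0.0909 and 0.0747 in limma. Of the 5 small membrane subunits, 4 rose in WT, with a median of 0.73, and 1 rose in the libraries labelled KO, with a median of 0.23.

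**Figure D3:**
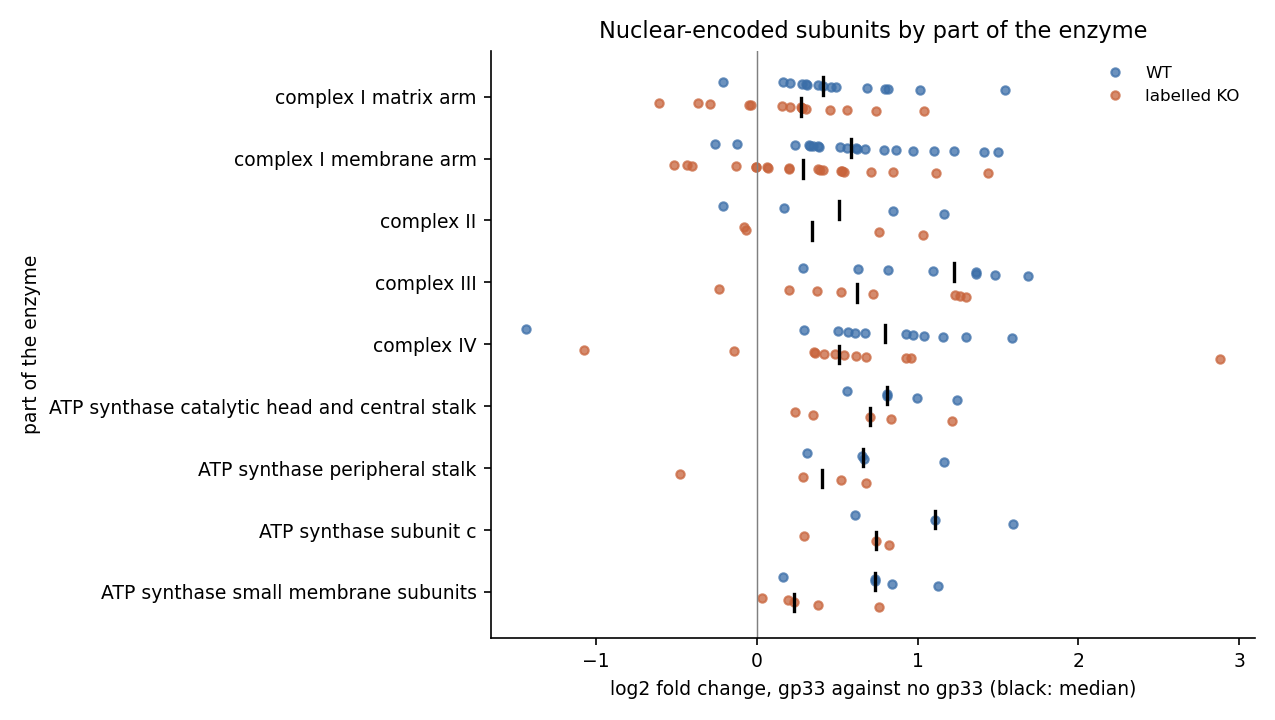
Log2 fold change with gp33 by part of the chain, in WT and in the libraries labelled KO, with each point 1 nuclear subunit and a bar at the median. Complex III has the highest median in WT, at 1.23, and the complex I matrix arm the lowest, at 0.41.

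The fall of the mitochondrially encoded subunits was not even. Mt-Co1, the catalytic subunit of complex IV, was at 5051, 4972 and 5600.1 in unstimulated WT and 1625, 1645 and 1709 with gp33 (log2 fold change -1.65, SE 0.13, adjusted p = 2.96e-08). The libraries labelled KO went from 4873, 4827 and 5433 to 1525, 1819 and 1786 (log2 fold change -1.56, SE 0.13, adjusted p = 6.68e-08). This was the largest fall of the 13 in both genotypes. Mt-Co2 and mt-Co3, the other core subunits of complex IV, fell by 0.80 and 1.03 in WT, and by 0.84 and 1.05 in the libraries labelled KO. Mt-Cytb, the electron-carrying core of complex III, fell from 5130.3, 5517 and 5949.5 to 2485, 2688 and 2781 in WT (-1.06, adjusted p = 8.22e-07) and from 4539.7, 4567 and 4813 to 3123, 3349.8 and 3655 in the libraries labelled KO (-0.46, adjusted p = 0.00226). Mt-Atp6, which forms the proton path of ATP synthase, changed by -1.18 (adjusted p = 3.88e-09) and -0.93 (adjusted p = 7.16e-08). Mt-Atp8, its partner on the same transcript, changed by -0.52 (adjusted p = 0.0782), not called, and -0.69 (adjusted p = 0.0263).

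Of the 7 mitochondrially encoded complex I subunits, which form its proton-pumping membrane arm, 6 fell in both genotypes and mt-Nd1 was not called in either. Mt-Nd1 was at 3545, 3796 and 3822 in unstimulated WT and 3577, 3663 and 3880.2 with gp33 (log2 fold change -0.01, SE 0.10, adjusted p = 0.962). In the libraries labelled KO it was at 3619.6, 3476 and 3600.0 without and 4012, 4368 and 4014 with gp33 (log2 fold change 0.21, SE 0.10, adjusted p = 0.0859). The WT groups overlapped and the others did not. Without replicate 2 of WT with inhibitor the difference in the libraries labelled KO had an adjusted p of 0.00114 and was a rise. Mt-Nd4 and mt-Nd5 fell most in WT, with log2 fold changes of -1.56 and -1.43, and had -1.10 and -1.43 in the libraries labelled KO. Mt-Nd2 had -1.14 and -1.07, and mt-Nd6, the only one of the 13 transcribed from the light strand, -1.17 and -1.27, so that mt-Nd5 and mt-Nd6 fell most in the libraries labelled KO. Mt-Nd3 and mt-Nd4l fell least, with -0.62 and -0.73 in WT and -0.70 and -0.61 in the libraries labelled KO. Several of these genes overlap: mt-Nd5 and mt-Nd6 on opposite strands, mt-Nd4 with mt-Nd4l and mt-Atp8 with mt-Atp6 and mt-Co3 on the same strand. The kit marks strand, but whether counting used it is not stated, so their values are uncertain to that extent.

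**Figure D4:**
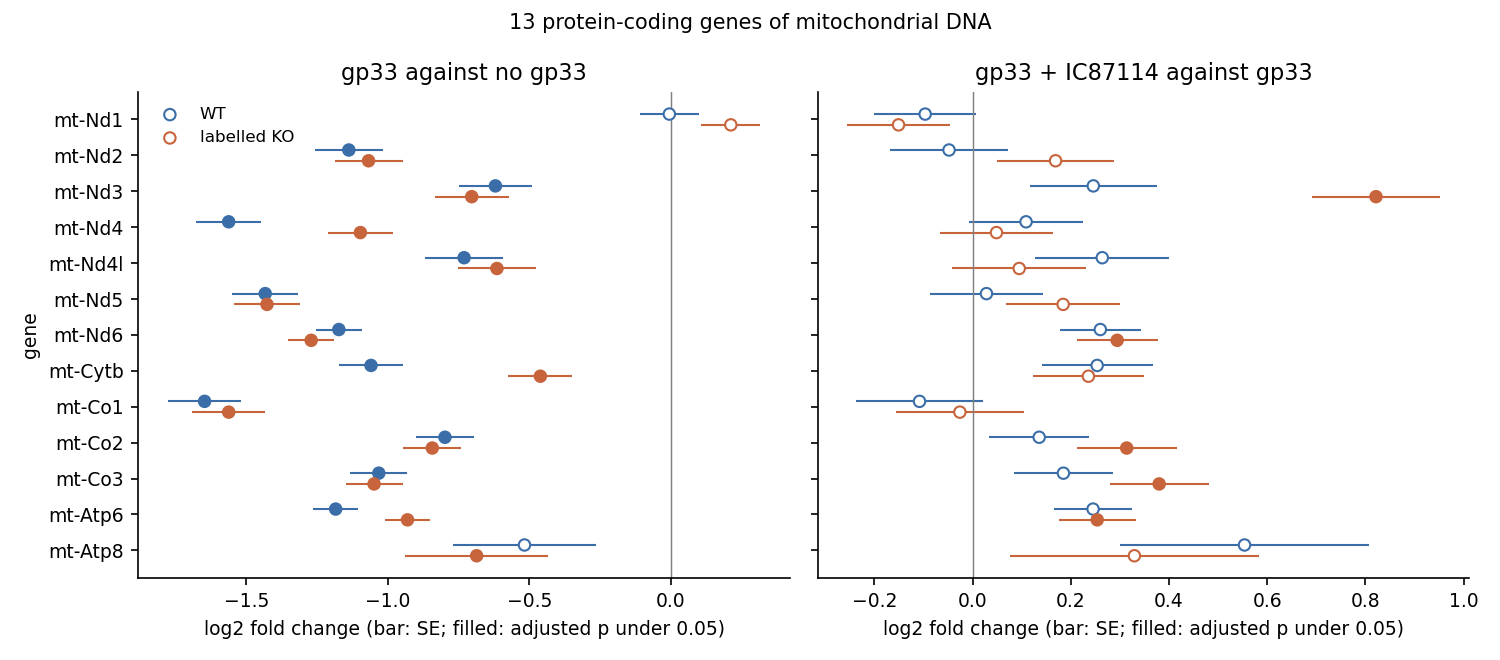
Log2 fold change of each of the 13 mitochondrially encoded subunits with gp33 against none (left) and with inhibitor against gp33 alone (right), in WT and in the libraries labelled KO, with bars of 1 SE and filled points for an adjusted p under 0.05. With gp33 all but mt-Nd1 lie below 0 in both, from -0.46 for mt-Cytb in the libraries labelled KO to -1.65 for mt-Co1 in WT.

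Many subunits share sequence with pseudogene copies, and the deposited table gives values to both. Of the pseudogenes in the table, 95 matched a member over at least 80% of their length at 90% identity or more, 79 of them 36 nuclear subunits and 16 of them 11 mitochondrially encoded ones. In 34 of the 36 nuclear subunits the copies' deposited values summed to more than the gene's, with a median of 29.9 times, not scaled for length. The copies had a median log2 ratio with gp33 of 0.65 in WT and 0.31 in the libraries labelled KO for copies of nuclear subunits, and of -0.78 and -0.86 for copies of mitochondrially encoded ones. The 36 subunits with copies had median log2 fold changes of 0.76 and 0.39, and the 42 without had 0.62 and 0.38. The copies of Ndufab1 summed to 389 in unstimulated WT and 1260.5 with gp33, and the copy of Cox7a2l to 195 and 85.0. The copies' ratio had the same sign as the gene's in 33 of the 36 nuclear subunits in WT and 34 in the libraries labelled KO, and in 10 of the 11 mitochondrially encoded in each. The exceptions were Atp5h, Ndufa1, Ndufa7 and mt-Cytb in WT and Ndufa1, Ndufb3 and mt-Cytb in the libraries labelled KO. For Atp5h in WT the copies summed to 1464 without peptide and 1238 with gp33, so how its level moved is uncertain. In 5 mitochondrially encoded genes a copy was identical over the match. The copies held 0.997 times the gene's value for mt-Atp6, 1.03 for mt-Co2, 0.998 for mt-Co3 and 1.00 for mt-Nd4l. It was 0.985 for mt-Nd3, 0.764 for mt-Co1, 0.320 for mt-Nd4, and 0.0148 or less for mt-Nd2, mt-Nd5, mt-Nd6 and mt-Cytb. How reads were shared between a gene and its copies is not stated, so their like direction is no independent support. With the copies added to their genes, 52 nuclear subunits rose and 4 fell in WT, where 73.8% of all genes were called, 42.0% higher and 31.7% lower. Among libraries labelled KO 38 rose and 8 fell, where 68.7% were called, 41.3% higher and 27.4% lower. Genes overlapping on the opposite strand or the same one include Ndufb11 with Rbm10, Ndufb6 with Smim27, Ndufs3 with Kbtbd4, Ndufaf3 with Impdh2, and Ndufab1 and Cox5a with predicted genes.

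Between genotypes, 1 to 3 of the 78 nuclear subunits were called in each condition. Without peptide, 1 of 78 was higher in the libraries labelled KO and 0 lower, where 12.9% of all genes were called, 5.69% higher and 7.23% lower. The median difference was 0.21, with 73 of 78 above 0, and that of all genes 0.01. The library means overlapped, at 3.44 to 3.61 in WT and 3.55 to 3.95 in the libraries labelled KO, with replicate 1 of the latter the highest. The gene called was Cox8a, at 197, 216 and 203 in WT and 267, 253 and 236 in the libraries labelled KO, which did not overlap (log2 fold change 0.29, SE 0.08, adjusted p = 0.0311). Its call was lost when replicate 1 or 3 of WT or replicate 1 or 2 of the libraries labelled KO was left out. With gp33, 1 was higher and 2 lower, with a median of -0.10 and 26 of 78 above 0, where 24.0% of all genes were called, 14.9% higher and 9.09% lower. Without replicate 3 of WT with gp33 the median was 0.01, with 41 of 78 above 0. The subunits called were Cox6b2 (1.98, adjusted p = 6.95e-06), Ndufb10 (-0.50, adjusted p = 0.00682) and Ndufv3 (-0.54, adjusted p = 0.00811). Since Cox6b2 passed the threshold through stimulated libraries alone, its difference is a description. With inhibitor, 0 were higher and 1, Ndufv3 (-0.50, adjusted p = 0.0426), lower, with a median of -0.18 and 11 of 78 above 0, where 4.62% of all genes were called, 2.01% higher and 2.61% lower. A fit that left out replicate 2 of WT plus inhibitor gave 8 higher and 1 lower without peptide, where 20.5% of all genes were called, 8.94% higher and 11.5% lower. It gave 1 higher and 14 lower with gp33, where 35.6% were called, 19.2% higher and 16.4% lower, and 0 and 0 with inhibitor, where 4.21% were, 1.6% higher and 2.61% lower. With inhibitor the direction turned in that fit, to a median of 0.08 with 61 of 78 above 0. Without it Ndufv3 with inhibitor was at -0.32 (adjusted p = 0.0866). Of the 13 mitochondrially encoded subunits, 0 were called without peptide, with 1 at an unadjusted p under 0.05, 2 were higher with gp33 and 1 was higher with inhibitor in the libraries labelled KO. These were mt-Nd4 (0.41, adjusted p = 0.0188) and mt-Cytb (0.35, adjusted p = 0.0386) with gp33 and mt-Nd3 (0.53, adjusted p = 0.0296) with inhibitor. Without that replicate the counts were 0 higher and 1 lower, 4 and 0, and 0 and 0. The median of the 13 with gp33 was 0.07, and -0.08 when libraries were centred on the median of protein-coding genes. All genotype differences rest on labels that the values of the targeted gene, higher in the libraries labelled KO, could not check.

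The difference between genotypes in the response to gp33 was tested as an interaction. It was called in 6 of 78 nuclear subunits, 1 with a higher and 5 with a lower response in the libraries labelled KO, where 25.3% of all genes were called, 15.7% higher and 9.60% lower. The median of the 78 was -0.31, with 7 above 0, and that of all genes 0.00. Without replicate 2 of WT with inhibitor the calls were 2 higher and 22 lower, where 37.8% of all genes were called, 20.3% higher and 17.5% lower. Ndufv3, an accessory subunit of the NADH-oxidising module, was at 6.62, 7.11 and 6.04 without and 8.03, 7.59 and 9.55 with gp33 in WT and at 8.85, 9.28 and 8.29 without and 5.20, 6.01 and 5.10 with gp33 in the libraries labelled KO. It fell with gp33 in the libraries labelled KO (-0.61, adjusted p = 0.000864) and was not called in WT (0.30, adjusted p = 0.0507), and the responses differed by -0.91 (SE 0.19, adjusted p = 0.00274). Ndufb10, an accessory subunit of the membrane arm, was at 68.3, 73.2 and 69.2 without and 79.1, 83.4 and 86.6 with gp33 in WT and at 89.0, 73.9 and 70.9 without and 61.6, 56.4 and 57.1 with gp33 in the libraries labelled KO. Its gp33 libraries labelled KO lay under all other libraries of these 4 groups, and the responses differed by -0.64 (SE 0.17, adjusted p = 0.0123). Lower responses were also called for Ndufb7, Ndufs3 and Atp5h, which lost the call when single libraries were left out. Of the mitochondrially encoded subunits, mt-Cytb was called with a smaller fall in the libraries labelled KO, a difference of 0.60 (SE 0.16, adjusted p = 0.0139). The median of the 13 was 0.07 and turned to -0.09 with centring and to -0.01 without replicate 1 of WT with gp33. Leaving out replicate 2 of WT plus inhibitor gave 4 higher and 0 lower. The call of mt-Cytb had an adjusted p of 0.0979 with centring.

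Cox6b2, the testis isoform of a nuclear complex IV subunit, had the largest genotype difference in response. It was at 0.0925, 0.579 and 0.555 in unstimulated WT and 1.38, 0.808 and 1.03 with gp33. It was at 0.144, 0.0788 and 0.0903 in unstimulated libraries labelled KO and 5.62, 9.22 and 6.94 with gp33. With inhibitor it was at 0.379, 1.19 and 0.416 in WT and 1.26, 0.671 and 0.990 in the libraries labelled KO. The 3 gp33 libraries labelled KO lay above all the others, and the values of 11 libraries were under the threshold of 1. The gp33 response was 0.57 (adjusted p = 0.0208) in WT and 2.88 (adjusted p = 1.13e-08) in the libraries labelled KO, and the difference between them 2.31 (SE 0.29, adjusted p = 6.17e-05). The gene passed the threshold through the gp33 groups, so this is a description of where it was high. Its paralogue Cox6b1, the common isoform, changed with gp33 by 0.97 (adjusted p = 0.00379) in WT and 0.61 (adjusted p = 0.0491) in the libraries labelled KO. The heart and muscle isoforms Cox6a2 and Cox7a1 reached no more than 0.548 and 0.228 in any library.

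**Figure D5:**
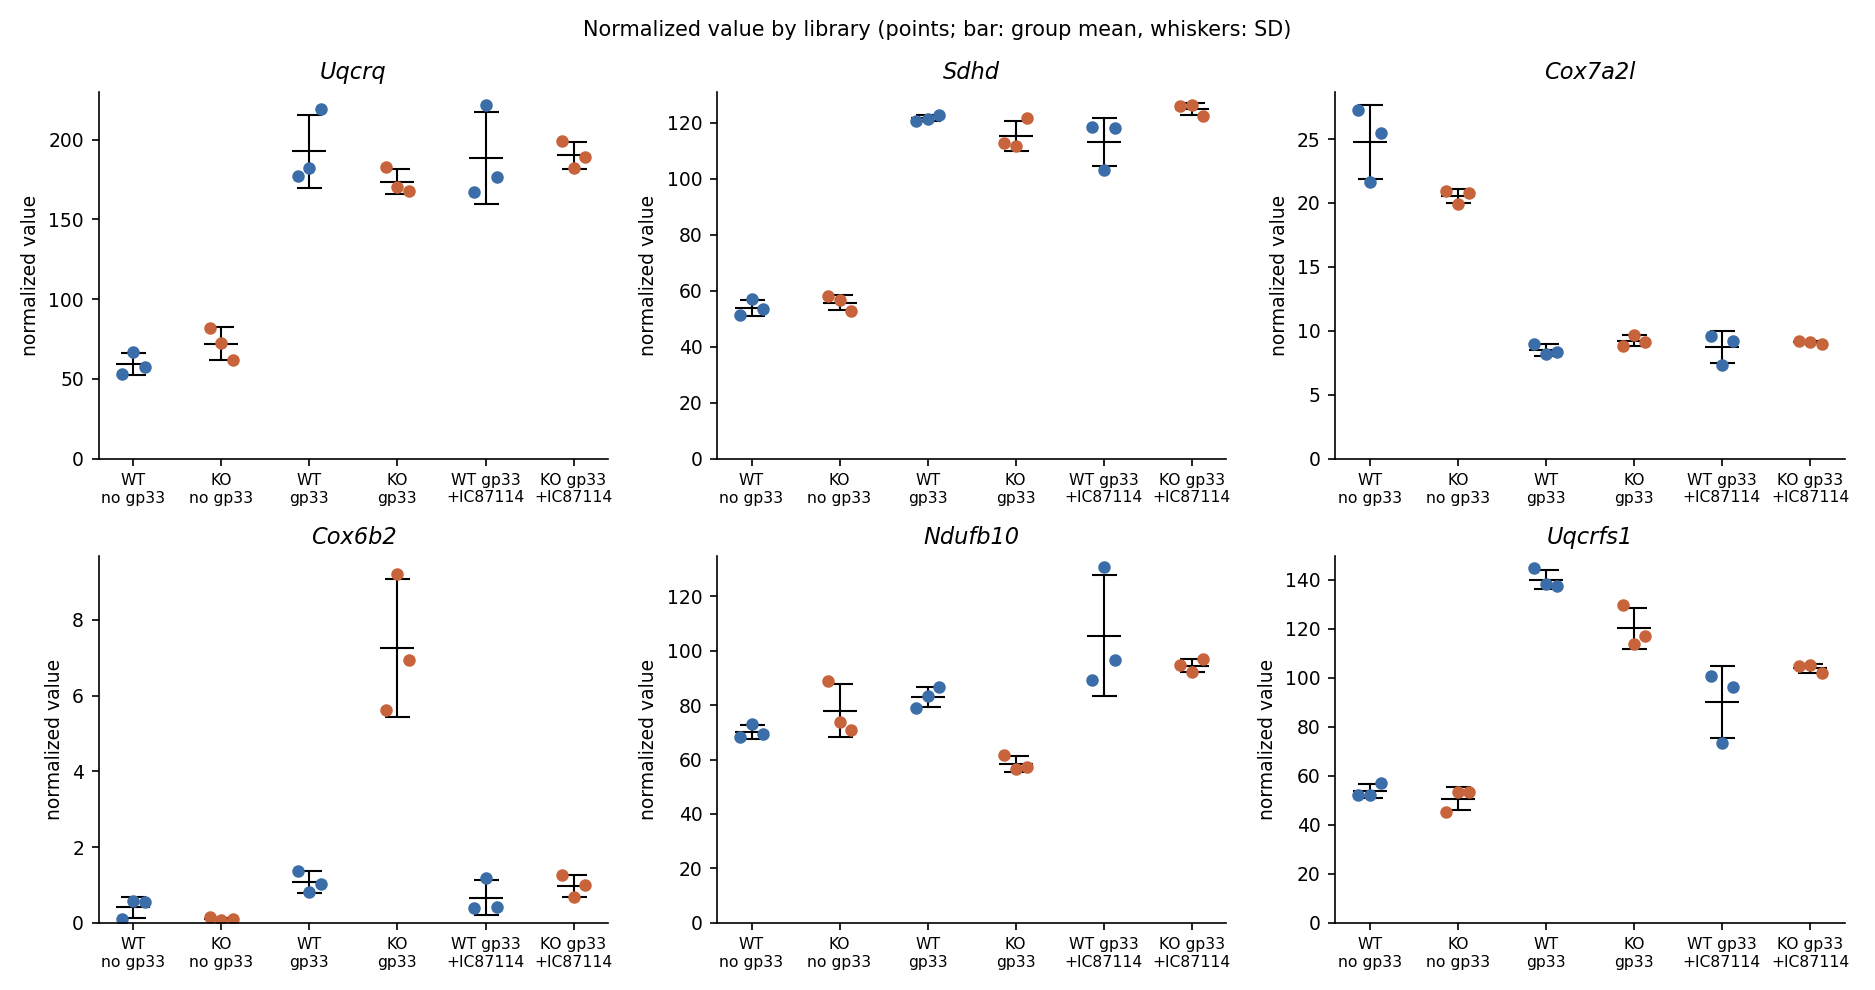
Normalized value per library of Uqcrq, Sdhd, Cox7a2l, Cox6b2, Ndufb10 and Uqcrfs1 by group, with each point 1 library, a bar at the group mean and whiskers of 1 SD. Cox7a2l lies between 19.9 and 27.3 without peptide and under 10 with it, and Cox6b2 lies above 5 only in the gp33 libraries labelled KO.

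Between gp33 with the PI3K delta inhibitor and gp33 alone, 2 of 78 nuclear and 0 of 13 mitochondrially encoded subunits were called in WT, and 7 and 5 in the libraries labelled KO. The mean log2 value of the nuclear subunits was 4.13, 4.95 and 4.25 with inhibitor in WT, and 4.34, 4.22 and 4.28 in the libraries labelled KO. For the mitochondrially encoded it was 9.65, 9.43 and 9.59 in WT and 9.66, 9.72 and 9.81 in the libraries labelled KO, above the 3 libraries with gp33 alone in the latter. In WT, 1 nuclear subunit was higher and 1 lower with gp33 plus inhibitor than with gp33 alone, where 8.46% of all genes were called, 3.31% higher and 5.15% lower, and the median was 0.26. Without replicate 2 of that group 0 were higher and 1 lower, the median was -0.03, and 9.16% of all genes were called, 4.13% higher and 5.03% lower. The subunit lower in both was Uqcrfs1, at 145, 138 and 138 with gp33 and 101, 73.5 and 96.4 with inhibitor, which did not overlap (log2 fold change -0.64, SE 0.11, adjusted p = 0.00144). Without that replicate its fold change was -0.50 (adjusted p = 0.000959). Ndufb11, an accessory membrane arm subunit, was called higher (0.49, adjusted p = 0.0437), and not without it (adjusted p = 0.113). None of the 13 mitochondrially encoded subunits was called in WT by limma, with 4 at an unadjusted p under 0.05, and without that replicate 4 were higher.

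In the libraries labelled KO, 5 nuclear subunits were higher and 2 lower with inhibitor, where 28.4% of all genes were called, 9.17% higher and 19.3% lower, and the median was 0.15. Without replicate 2 of WT with inhibitor, 17 were higher and 4 lower, where 39.5% of all genes were called, 15.8% higher and 23.7% lower. With only the libraries compared 35 nuclear subunits were called, where 48.2% of all genes were, 20% higher and 28.2% lower. Ndufb10 was at 61.6, 56.4 and 57.1 with gp33 and 94.7, 92.1 and 96.9 with inhibitor (log2 fold change 0.69, SE 0.12, adjusted p = 0.000588). The inhibitor libraries lay above the unstimulated ones too. The others that rose were Ndufb11 (0.54, adjusted p = 0.00855), Ndufb7 (0.43, adjusted p = 0.0306), Sdhc (0.47, adjusted p = 0.00265) and Atp5h (0.55, adjusted p = 0.0453). Cox6b2 fell by 2.05 (adjusted p = 4.01e-06) and Cox8a by 0.32 (adjusted p = 0.00947). Since Cox6b2 passed the threshold through stimulated libraries alone, its values here and in the interaction below are descriptions. Of the 13 mitochondrially encoded subunits, 5 were higher and 0 lower, with a median of 0.24, and 6 and 1 without that replicate. Mt-Nd3 was at 79.5, 66.8 and 61.2 with gp33 and 127, 114 and 126 with inhibitor, which overlapped 122, 115 and 102 without peptide (log2 fold change 0.82, SE 0.13, adjusted p = 0.000282). The other 4 were mt-Nd6, mt-Co2, mt-Co3 and mt-Atp6, with log2 fold changes of 0.29, 0.31, 0.38 and 0.25, and each lost the call without replicate 1 of gp33 labelled KO. The inhibitor's effect differed between genotypes, as an interaction, in 1 of 78 nuclear subunits, Cox6b2 at -1.71 (adjusted p = 0.00181), where 9.74% of all genes were called, 3.27% higher and 6.47% lower. Leaving out replicate 2 of WT plus inhibitor, 2 were higher and 1 lower, where 14.4% of all genes were called, 5.68% higher and 8.72% lower. None of the 13 mitochondrially encoded subunits was called by limma in that test, with 1 at an unadjusted p under 0.05. The median of the 78 was -0.08, with 27 above 0. It turned to 0.11 with centring and to 0.19, with 67 above 0, without replicate 2 of WT with inhibitor.

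The 5 Ndufaf genes, whose products help build complex I and do not stay in it, went different ways with gp33. Ndufaf3 was at 18.2, 18.97 and 21.4 in unstimulated WT and 7.79, 8.81 and 9.34 with gp33, and at 20.8, 20.1 and 19.7 without and 8.78, 7.71 and 8.94 with gp33 in the libraries labelled KO. It fell in both, with log2 fold changes of -1.09 (adjusted p = 5.98e-06) and -1.16 (adjusted p = 3.57e-06). Ndufaf4 went from 15.1, 15.1 and 15.3 to 29.6, 30.8 and 29.6 in WT and from 12.8, 16.3 and 12.9 to 27.9, 23.0 and 26.0 in the libraries labelled KO (0.94, adjusted p = 6.04e-07, and 0.83, adjusted p = 2.70e-06). These 2 partners in early complex I assembly thus moved oppositely. Ndufaf7, a methyltransferase needed for complex I assembly, rose by 0.52 (adjusted p = 0.00217) and 0.42 (adjusted p = 0.0098). Ndufaf1 rose in WT by 0.39 (adjusted p = 0.0019) and was not called in the libraries labelled KO (-0.03, adjusted p = 0.826), and the responses differed by -0.42 (adjusted p = 0.0364). Ndufaf8 was not called in either.

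Lists of other genes of the mitochondrion were counted beside the subunits. Of 74 mitochondrial ribosomal proteins, which translate the 13 mitochondrial messages, 67 rose and 1 fell with gp33 in WT, with a median of 0.83, and 58 rose and 3 fell in the libraries labelled KO, with a median of 0.60. Mrps6 rose by 1.79 and 1.99, and Mrpl45 by 1.76 and 2.04. Of the list of electron carriers and related genes outside the symbol pattern, the 4 tested (Cyc1, Cycs, Atpif1 and Mtfp1) rose in both genotypes. Cytochrome c, Cycs, rose by 2.27 in WT and 1.596 in the libraries labelled KO. Of 9 citric acid cycle enzymes 6 rose and 0 fell in each genotype, among them citrate synthase, Cs, by 0.83 and 0.86. Of 30 other assembly factors 13 rose and 9 fell in WT and 15 rose and 9 fell in the libraries labelled KO. In WT 43.3% of them rose, near the 42.1% of all genes, and the 9 of 30 that fell were near the 31.6% of all genes. Tmem126b, a complex I assembly factor, had -1.36 in WT. Of 20 genes for mitochondrial DNA upkeep and expression 9 rose and 7 fell in WT, and 8 rose and 3 fell in the libraries labelled KO. The share of this list that rose was 45.0% in WT and 40.0% in the libraries labelled KO, near that of all genes in each. Of 5 regulators of mitochondrial biogenesis 1 rose and 2 fell in WT, and 3 rose and 1 fell in the libraries labelled KO. Myc, a transcription factor that binds the E-box, rose by 1.58 and 1.41, and Yy1 fell by 0.63 in WT. All 14 glycolysis genes tested rose in WT, with a median of 2.36, and 13 rose and 1 fell in the libraries labelled KO, with a median of 1.15. With gp33, 13 of the 14 were lower in the libraries labelled KO than in WT, where 9.09% of all genes were called lower.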

How the data were processed

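RNA of sorted CD8 T cells was measured in 18 libraries, 3 in each of 6 groups, whose genotype and treatment the sample labels give. The authors deposited 1 table of 23414 genes holding log2 values, normalized in Partek per its name. The log base, the offset and the scaling are not stated. Values were read as log2(value + 1). The aligner and the counter are not given in the sources used here, and the submitters' processing notes name GRCm38 and GRCm39 without their role. The kit was Illumina Stranded mRNA with polyA selection, per the labels' protocols. That text describes gp33 for every sample, and the titles and treatment fields were followed instead. The values are not whole reads, so depth and counting error are unknown.

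The test took in the 10257 genes that reached 1 in at least 3 libraries. A mean per group was fitted to the log2 values of all 18 libraries in R 4.3.3 (limma 3.58.1, statmod 1.5.0), using trended, robust moderation and leaving 12 residual degrees of freedom. Tests were 2-sided, with Benjamini-Hochberg adjustment over all genes tested and a threshold of 0.05, in 7 comparisons of 2 groups and 2 interactions. Adding 1 before the log understates the change of low genes. The test was checked on simulated data. Pseudogenes were matched to members with BLAST+ 2.17.0 on GENCODE M21 transcripts at 90% identity and 80% coverage. The tables were handled with pandas 2.3.3 and numpy 2.4.6 in Python 3.11.15, and figures drawn with matplotlib 3.10.9.

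The members and lists were chosen with earlier results of these data known. The rule for naming took in every mitochondrially encoded member and, per complex and comparison, the members with the largest and the smallest fold change. It also took in the 3 nuclear members with the smallest p of each interaction, tissue isoforms and paralogues, and the members next to the threshold. From each other list it took the 2 members with the smallest p. Only part of these are named in the text, and for genotype and inhibitor they are mainly genes that were called. Where a further gene is named, it was chosen after its values were seen. The values of 1 member are not reported here. Libraries share a number across genotypes and a letter across treatments. Deviations from the group means correlated at -0.03 to 0.22 for the same letter, over 0.1 in 4 of 18 pairs, all of replicate 1. For the same number they correlated at or under 0 in all 9 pairs. The libraries were not treated as pairs, though pairing by letter is not excluded. Alternatives covered the filter, the value added before the log, the scaling, the moderation, fits of only the libraries compared, blocks, single libraries left out and, chosen after seeing the data, the copies added to their genes.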

Additional observations from a re-analysis of the deposited data

Results flagged for a closer look

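For 9 of the 96 genes, 10 differences in response were called between WT and the libraries labelled KO by limma's test of the difference itself, at an adjusted p under 0.05. Of all genes tested, 25.3% were called for the response to gp33 and 9.74% for the effect of the inhibitor. The KO label could not be checked from the values of the targeted gene, which was higher in those libraries.

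For the response to gp33, the difference in log2 fold change (labelled KO minus WT) was 2.314 for Cox6b2 (adjusted p = 6.17e-05), -0.9125 for Ndufv3 (adjusted p = 0.00274) and -0.6425 for Ndufb10 (adjusted p = 0.0123). It was 0.5984 for mt-Cytb (adjusted p = 0.0139). Ndufv3, Ndufb10 and mt-Cytb kept the call in limma with each of the 18 libraries left out in turn. Cox6b2 passed the threshold on values through the stimulated libraries alone, so its differences are descriptions. The gp33 difference was -0.6193 for Ndufb7 (adjusted p = 0.0301), -0.4176 for Ndufaf1 (adjusted p = 0.0364), -0.7894 for Atp5h (adjusted p = 0.0455) and -0.4437 for Ndufs3 (adjusted p = 0.0472). The calls of these 4 were lost without 1 library in 9, 8, 12 and 14 of 18 cases.

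For the effect of the inhibitor, the difference was -1.71 for Cox6b2 (adjusted p = 0.00181) and 0.5367 for Ndufaf4 (adjusted p = 0.0255). The call of Ndufaf4 was lost in 5 of 18 cases. With gp33 alone Ndufaf4 was at 29.6, 30.8 and 29.6 in WT and 27.9, 23.0 and 26.0 in the libraries labelled KO, and with inhibitor at 25.0, 22.1 and 25.5 and 28.5, 29.8 and 32.4.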

How the results depend on the processing

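Of 876 values of counts and group means recomputed under the alternatives, 757 kept their size and 119 moved. Of 378 recomputed differences of group means, 6 changed sign: the nuclear inhibitor effect in WT and nuclear genotype difference with inhibitor without replicate 2 of WT with inhibitor, and the mitochondrially encoded genotype difference with gp33 in 1 case and without peptide in 3. Of 3812 values of single genes, 167 lost the call and 50 gained it. Calls of nuclear subunits (of 78) under other settings were as follows. Shares of all genes called also moved between settings. A count given here or below without such a share describes the setting and is no result about the subunits. Without the filter on low values they were 1 for the inhibitor in WT and 0 for genotype with inhibitor. With only the libraries compared they were 0 for the inhibitor in WT and 35 for it in the libraries labelled KO, 0, 13 and 0 for genotype without peptide, with gp33 and with inhibitor, and 15 for the genotype difference in response to gp33. With protein-coding genes alone, rescaled, 5 were called for genotype with gp33, where 1659 of the 5800 protein-coding genes were higher and 492 lower. Centred on the median of protein-coding genes, the calls were 20 for the inhibitor in the libraries labelled KO, 12 for genotype with gp33, 12 for the genotype difference in response to gp33 and 4 for that in the effect of the inhibitor. Of the 10257 genes tested, centring gave 2312 higher and 953 lower, 845 and 1942, 898 and 1690, and 950 and 341 in the same order. With copies added they were 14 for the inhibitor in the libraries labelled KO, 4 and 7 for genotype without peptide and with gp33, and 2 for the genotype difference in the inhibitor's effect. With 0.1 added before the log, that difference had 0.

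Calls of mitochondrially encoded subunits (of 13) were 1 for the inhibitor in WT rescaled, 2 for it in the libraries labelled KO rescaled, 1 for genotype without peptide rescaled and 3 for the genotype difference in response to gp33 rescaled. Without the filter, genotype with gp33 had 1 and with inhibitor 0, and only with the libraries compared the latter had 0. Centred, genotype with gp33 had 0, the genotype difference in response to gp33 had 0 and that in the inhibitor's effect 1. The response difference had 2 with a filter at 5 and 4 with only the libraries compared. The cause of these moves was not tested. Among calls named, mt-Atp8 with gp33 in the libraries labelled KO was lost without 1 of 3 libraries, mt-Nd4 and mt-Cytb for genotype with gp33 without 1 of 3 and 1 of 6, mt-Nd3 with inhibitor without 1 of 5, Atp5h with gp33 there without 1 of 4, Atp5h, Ndufb7 and Cox8a for the inhibitor there without 1 of 12, 1 of 6 and 1 library, Ndufv3 for genotype with inhibitor and Ndufb11 for the inhibitor in WT without 1 of 13 each, and Cox6b2 with gp33 in WT without 1 of 2.

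Pairing by number was not shown. For the same letter, deviations from the group means correlated weakly, at -0.03 to 0.22, so pairing by letter is not excluded. With a replicate block by number, nuclear calls were 1 and mitochondrially encoded 1 for the inhibitor in WT, and with a block by letter 1 nuclear for it. For the genotype difference in response to gp33 the block by letter gave 10 nuclear and 2 mitochondrially encoded calls. With a block by number, nuclear subunits gave 55 higher and 1 lower with gp33 in WT, and 31 and 4 in the libraries labelled KO.

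The rescaled setting tested the 5800 protein-coding genes alone, where the main fit tested 10257. Its medians and shares are thus over a different set of genes, and the part of the scaling alone was not tested. With gp33 in WT the median was 0.19 over all genes tested and -0.07 over the protein-coding genes rescaled. Centring moved the median of all genes for the inhibitor in the libraries labelled KO from -0.04 to 0.16. In the same settings the medians of the nuclear subunits themselves were 0.57 and 0.35. The share of calls that were higher was 57.1% with gp33 in WT and 46.5% rescaled. It was 32.3% for the inhibitor in the libraries labelled KO, 14.9% rescaled and 70.8% centred. For genotype it was 44.0% without peptide and 24.0% rescaled, and 62.1% with gp33, 77.1% rescaled and 30.3% centred. For the genotype difference in response to gp33 it was 62.0%, 81.4% and 34.7%, and in the inhibitor's effect 33.5%, 12.47% and 73.6%.

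The mean difference in nuclear subunits for the inhibitor in the libraries labelled KO was 0.034 rescaled and 0.33 centred, and for genotype with gp33 -0.24 centred. For the mitochondrially encoded it was -1.11 with gp33 in WT rescaled, -1.0027 in the libraries labelled KO centred, 0.12 rescaled and 0.43 centred for the inhibitor there, -0.11 rescaled for genotype without peptide and -0.042 centred with gp33.

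Leaving out 1 library at a time, nuclear calls ranged from 49 to 71 with gp33 in WT, 31 to 56 in the libraries labelled KO, 1 to 4 and 4 to 21 for the inhibitor, 0 to 9, 3 to 15 and 0 to 1 for genotype, and 3 to 24 and 1 to 3 for the differences in response. Mitochondrially encoded calls ranged from 11 to 12, 11 to 13, 0 to 4, 1 to 7, 0 to 1, 0 to 4, 0 to 3, 1 to 4 and 0 to 1 in the same order. The nuclear counts of 71, 56, 21, 9, 15 and 24 arose without replicate 2 of WT with inhibitor. In that fit 79.8%, 75%, 39.5%, 20.5%, 35.6% and 37.8% of all genes were called. Mean differences in nuclear subunits ranged from 0.63 to 0.78, 0.34 to 0.53, -0.05 to 0.36, 0.10 to 0.16, 0.09 to 0.29, -0.16 to -0.01 and -0.32 to 0.09, and in mitochondrially encoded from -1.05 to -0.94, -0.92 to -0.85, 0.11 to 0.22, 0.19 to 0.26, -0.04 to 0.05, 0.06 to 0.16 and 0.11 to 0.22.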
